A study of Mus musculus with 2 samples.

Results

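The genes described here encode the actin and tubulin cytoskeleton of the mouse kidney. They were chosen by symbol: the actins *Acta*, *Actb* and *Actg*, the alpha-actinins, tropomyosins, myosin heavy and light chains, unconventional myosins, tubulins, beta-thymosins, transgelins, calponins and filamins, together with villin (*Vil1*), ezrin (*Ezr*), moesin (*Msn*) and radixin (*Rdx*). The rule found 83 of the 19829 genes listed. The rule itself uses symbols and no measured value, but it was written with earlier results of these data known.

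Actin polymerises into filaments that tropomyosin coats, alpha-actinin and filamin crosslink, and myosin II pulls on. In the kidney tubule such filaments form the core of the brush border microvilli, the belt at cell junctions and the stress fibres at the basal side, and ischemia is known to disassemble and redistribute them in proximal tubule cells. Alpha- and beta-tubulin form microtubules, which the gamma-tubulin complex nucleates, and most of these proteins exist as several isoforms made from separate genes.

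The study compared whole kidneys of C57BL/6 male mice by bulk RNA sequencing, with 1 library per group. The library WT+AKI came from wild-type littermates and the library TG+AKI from mice carrying an *Inmt* transgene expressed in proximal tubules, *Inmt* being an enzyme that methylates indole amines such as tryptamine. Both groups received voclosporin, a calcineurin inhibitor, by daily intraperitoneal injection (30 mg/kg) over the 2 weeks between ages 8 and 10 weeks, and bilateral renal ischemia of 30 min at 14 weeks of age, so neither library is from an untreated or sham-operated kidney. Another passage of the study describes a longer course of voclosporin before ischemia. Harvest after reperfusion is given as 48 h in the methods and as 24 h in the legend of these groups.

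The promoter driving the transgene and the number of mice behind each library are not given in the sources used here. The deposited labels state no treatment and also call the TG+AKI animals conditional knockouts, while *Inmt* stood at 10.4 (443 reads) in WT+AKI against 403 (13339 reads) in TG+AKI, 38.5 times as high (95% interval 35.1 to 42.5). This goes with the transgene and not with a knockout. Values throughout are deposited normalized values, which are reads per 1000000 after library scaling. The libraries held 38542764 and 36427421 reads, so a value of 10 stood for 424.0 and 331.2 reads, respectively. Intervals are exact 95% binomial intervals from those reads. They cover counting error only, since PCR reads are not independent molecules, and with 1 library per group the spread between animals is unknown and no test of the condition was possible.

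Cytoskeletal genes leaned to lower values in TG+AKI. Most of the differences past 2-fold were in alpha- and beta-tubulins, tropomyosins and crosslinkers. Of the 83 genes, 62 reached a value of 10 in 1 library or both and were compared. At least a 2-fold difference on the log2(value + 1) scale was met by 19 genes in the lower direction (30.6%) and by 1 gene, *Myo5a*, in the higher direction (1.61%). Over all 10294 genes compared the same shares were 7.12% lower and 5.74% higher. The median log2 difference was -0.35 among the 62 genes and 0.01 among all genes, and 44 of the 62 (71.0%) had the lower value in TG+AKI, against 48.8% of all genes.

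Other limits on low values give other counts. Of the 62 genes, 56 reached 10 in both libraries, and the other 6 (*Flnc*, *Tubb6*, *Tmsb10*, *Tpm2*, *Tpm3-rs7*, *Tubb4b-ps1*) did so only in WT+AKI. None passed through TG+AKI alone. Among the 56, 15 were lower (26.8%) and 1 higher, where 4.3% and 4.66% of the 9201 genes reaching 10 in both were. Without a filter, 21 of 83 were lower (25.3%) and 2 higher, beside 5.8% and 3.95% of all 19829 genes. The 83 genes together took 1.04% of the WT+AKI reads and 0.590% of the TG+AKI reads. In bulk tissue, fewer cells of a type and less RNA per cell cannot be told apart in any of these values.

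The choice of scaling moves the dividing line. Scaled to equal column totals, the median of all genes shifted by -0.28 on the log2 scale, and the cytoskeletal genes then stood at 0 higher and 23 lower beside 3.46% and 11.01% of all genes. Setting the median ratio of abundant genes to 1 shifted it by -0.15 and gave 0 higher and 22 lower beside 4.44% and 8.87%. The 19 lower genes were among the lower genes under both, while *Myo5a* was not past 2-fold under either. The plot of both libraries shows most points below the line of equal values and the few genes far from it.

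**Figure D1:**
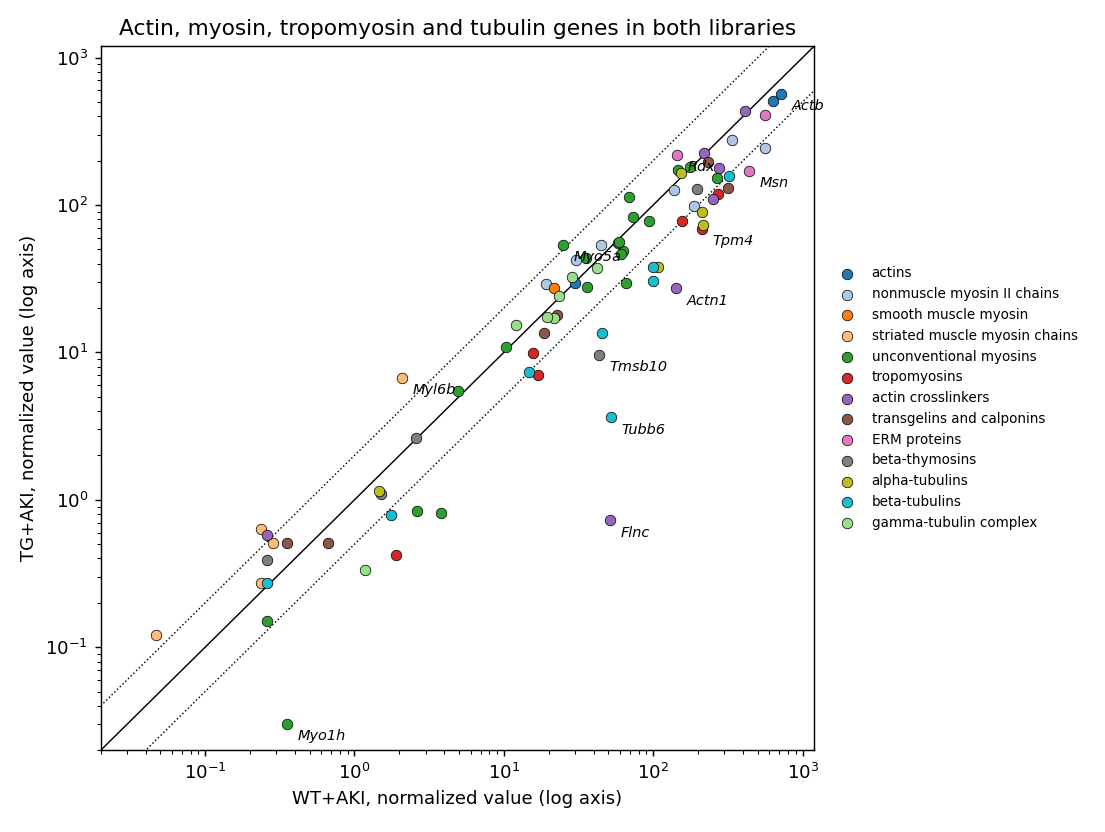
Normalized value of each of the 83 genes in WT+AKI (horizontal, log axis) and TG+AKI (vertical, log axis), coloured by role, with 1 library per group. The solid line marks equal values and the dotted lines a 2-fold difference; *Flnc* and *Tubb6* lie farthest below among genes reaching 10, and *Myo5a* lies just above the upper line.

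The cytoplasmic actins, which build the filaments of all nonmuscle cells, stayed within a 2-fold difference. *Actb* had a value of 720 in WT+AKI against 569 in TG+AKI, a ratio of 0.791 (0.777 to 0.806). *Actg1* was listed at 637 and 505, giving a ratio of 0.792 (0.777 to 0.807), and 51.1% of the 100-base words of its transcript also occur in other genes, so its reads may be shared with pseudogenes. The pair kept its proportion to within counting error, *Actb* taking 53.0% of the reads of both genes in each library. Per 1000 bases of the longest transcript, *Actb* was the most abundant actin in both libraries, at 375 and 297. Smooth muscle actin *Acta2*, found in vessel walls and myofibroblasts, was listed at 29.98 and 29.56, giving a ratio of 0.986 whose interval (0.906 to 1.07) holds equality, while with equal column totals its log2 difference was -0.29.

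Many actin genes are known targets of serum response factor, which binds the CArG box. Promoter windows reaching from 250 bases before to 50 after each RefSeq start (build GRCm38.p6) were found for 66 of the 83 genes. An exact CArG box on either strand stood in 7 of the 66 (10.6%), against 1.68% of 13714 listed genes and 1.63% of all 32851 promoters. The 6 compared genes that carry one are shown, so that the matches can be read beside the values of their genes. Each line gives 30 bases on the strand of the gene with the box in capitals.
Actg1: ggaaagatcgCCATATATGGacatgttctg
Cnn2: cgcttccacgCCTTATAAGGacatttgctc
Myl6: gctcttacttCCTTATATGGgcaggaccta
Myl9: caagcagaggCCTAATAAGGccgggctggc
Myo1e: gctgaattctCCATTTATGGacagattgcc
Vil1: ccctatcttcCCTTATATGGtgaaggaagt

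Coordinates below are those of the windows shown, and distances are those of the boxes. The *Actg1* box lay 90 bases upstream of the start (chr11:120348566-120348595, minus strand) and the *Cnn2* box 56 bases upstream (chr10:79988534-79988563, plus strand). Those of *Myl6* and *Myl9* lay 50 bases (chr10:128493040-128493069, minus) and 161 bases upstream (chr2:156775293-156775322, plus). For *Myo1e* and *Vil1* the distances were 32 bases (chr9:70207308-70207337, plus) and 73 bases (chr1:74409301-74409330, plus). None of these 6 genes met the 2-fold rule, and their ratios ran from 0.761 for *Myo1e*, named here for its promoter only, to 1.52 for *Myl9*.

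The letters TGANTCA, the AP-1 site, stood on either strand in 5 of the 66 promoters (7.58%), close to the 6.88% of listed genes and 7.81% of all promoters. The 4 compared genes with this match are given in the same way, with the match in capitals, because the group holds both actin-membrane linkers and myosins.
Ezr: ccgatcgggcgTGACTCAtcttgggaccg
Myl12a: gacctagacagTGAGTCAccctagcttcc
Myo1c: cctggaaaaccTGACTCAggcggagcccg
Actn4: gccccgccttaTGAATCAttcatgacttg

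These windows are at chr17:6782795-6782823 (minus strand, 32 bases upstream), chr17:71002653-71002681 (minus, 137), chr11:75655921-75655949 (plus, 83) and chr7:28962484-28962512 (minus, 169). Of the 19 genes lower by at least 2-fold, 16 had a promoter window, and 0 of the 16 held either motif. That says only that these letters were not in these windows.

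Tropomyosins, the rod-shaped proteins that lie along the filament and set which myosins and severing proteins reach it, were all lower in TG+AKI. *Tpm4* (NCBI Gene 326618) fell from 212 to 69.1, 3.07-fold (2.93 to 3.21). *Tpm3* fell from 273 to 119, 2.29-fold (2.204 to 2.370). *Tpm1* was listed at 155 and 77.8, and its log2 difference of -0.99 missed the 2-fold rule by a narrow margin. The low-level *Tpm2*, the form known from smooth and slow skeletal muscle, was listed at 15.7 and 9.90. The copy *Tpm3-rs7* fell from 16.9 to 7.07, but 49.8% of its words occur in other genes, so it cannot be read apart from *Tpm3*. Of 5 tropomyosin genes compared, 3 met the rule and all 5 had the lower value in TG+AKI. *Tpm3-rs7* is counted in both, and the median log2 difference of -1.15 is its own value. Within the family, *Tpm4* held 32.3% of the WT+AKI reads and 25.0% of the TG+AKI reads, while *Tpm3* held 41.6% and 43.3% and was the most abundant per length in both.

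The crosslinkers split by isoform. *Actn1* (NCBI Gene 109711), the alpha-actinin of stress fibres and focal adhesions, fell from 143 to 27.2 (6065 and 901 reads), 5.26-fold (4.90 to 5.65). Its close relative *Actn4*, prominent in podocytes and tubular epithelium, was listed at 409 and 433, giving a ratio of 1.06 (1.03 to 1.08) that turned to a log2 difference of -0.19 with equal column totals. The share of *Actn1* among reads of both genes was 25.9% (25.3 to 26.5) in WT+AKI against 5.92% (5.55 to 6.30) in TG+AKI, a proportion that no scaling of the libraries can alter.

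Filamins are large flexible crosslinkers that tie filaments to the membrane. *Flnc* (NCBI Gene 68794), the form known from striated muscle, had 51.1 (2166 reads) in WT+AKI against 0.725 (24 reads) in TG+AKI, a 70.5-fold lower value (47.3 to 110.3). This was the widest difference among the 62 genes. *Flna* fell from 252 to 110, 2.30-fold (2.21 to 2.39). Villin, which bundles actin inside microvilli of the proximal tubule, was listed at 219 and 226, giving a ratio of 1.04 (1.004 to 1.067) whose log2 difference became -0.22 with equal column totals.

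Markers of skeletal muscle were low in both libraries. Of 9 skeletal muscle markers 5 had no row and 1 is itself among the 83 genes. Of the other 3, *Neb* had 9 and 10 reads, *Mylpf* 35 and 21 reads, and desmin (*Des*), which smooth muscle also makes, was listed at 18.2 and 12.4. Of the 5 genes grouped here as striated muscle myosin chains, *Myh6*, *Myh7*, *Myl4* and *Myl7* had between 2 and 21 reads in either library. The remaining gene, *Myl6b*, had more, with 88 and 222 reads. Its ratio was 3.23 (2.51 to 4.18), and both of its values stayed under 10. The alpha-actinin of fast muscle, *Actn3*, had 11 and 19 reads.

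Nonmuscle myosin II, the motor that contracts these filaments, differed in its composition. *Myh9* (NCBI Gene 17886), the heavy chain of myosin IIA, fell from 558 to 245 (23665 and 8107 reads), 2.28-fold (2.22 to 2.34). The heavy chains of IIB and IIC stood the other way, *Myh10* at 44.7 and 53.1, a ratio of 1.19 (1.11 to 1.27), and *Myh14* at 30.5 and 42.2, a ratio of 1.38 (1.28 to 1.49). *Myh10* turned to a log2 difference of -0.02 with equal column totals. Of all heavy chain reads, *Myh9* took 88.1% (87.7 to 88.5) in WT+AKI and 72.0% (71.1 to 72.8) in TG+AKI. The share of *Myh10* went from 7.05% to 15.6% and that of *Myh14* from 4.81% to 12.4%.

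The light chains showed a like shift in proportion. Regulatory light chain *Myl12a* was listed at 188 and 98.0, 1.92-fold lower (1.842 to 1.9998), while *Myl12b* was listed at 138 and 127, giving a ratio of 0.918. Of the words of *Myl12a*, 24.5% occur in transcripts named *Myl12b*. Of those of *Myl12b*, 31.4% occur in another entry of the same name and 1.0% in *Myl12a*. How such shared reads were assigned is uncertain. *Myl9*, the regulatory chain of smooth muscle, had the higher value in TG+AKI, 29.2 against 19.2, a ratio of 1.52 (1.38 to 1.67). The essential light chain *Myl6* was the most abundant nonmuscle myosin II gene per length in both libraries, with values of 335 and 278 and a ratio of 0.829. Smooth muscle heavy chain *Myh11* was listed at 21.7 and 27.5, giving a ratio of 1.27 (1.16 to 1.39).

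Transgelins and calponins bind along actin and are best known from smooth muscle. *Tagln2*, the broadly expressed transgelin, fell from 314 to 131, 2.39-fold (2.31 to 2.48), and was the group's most abundant gene per length in WT+AKI only; in TG+AKI that gene was *Cnn3*. *Tagln*, the smooth muscle form, was listed at 18.4 and 13.5. *Cnn2* was listed at 22.78 and 17.997, and *Cnn3* at 232 and 196. *Cnn1*, specific to smooth muscle, had 28 and 17 reads and was not compared. All 4 compared genes had the lower value in TG+AKI and 1 met the rule.

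Ezrin, radixin and moesin link actin to the plasma membrane, ezrin being the form of the brush border. *Msn* (NCBI Gene 17698), the form abundant in endothelium and leukocytes, fell from 438 to 170 (18581 and 5643 reads), 2.57-fold (2.50 to 2.65). *Ezr* was listed at 564 and 409, 1.38-fold lower (1.35 to 1.41). *Rdx* stood higher in TG+AKI, at 220 against 144, a ratio of 1.52 (1.47 to 1.58) that did not reach 2-fold. Among the reads of all 3 genes, moesin went from 38.2% (37.8 to 38.6) to 21.3% (20.8 to 21.8) and radixin from 12.6% (12.3 to 12.9) to 27.5% (27.0 to 28.1), while ezrin took 49.2% and 51.2%.

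Beta-thymosins hold actin monomers in reserve. *Tmsb10* (NCBI Gene 19240) fell from 43.2 to 9.66 (1830 and 320 reads), 4.47-fold (3.96 to 5.05), although 21.5% of its words occur in other genes. *Tmsb4x*, the main thymosin per length in both libraries, was listed at 198 and 129, 1.53-fold lower (1.48 to 1.59). *Tmsb10* supplied 17.9% of the reads of both genes in WT+AKI and 6.98% in TG+AKI. The plot of isoform shares sets these proportions side by side for 9 families.

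**Figure D2:**
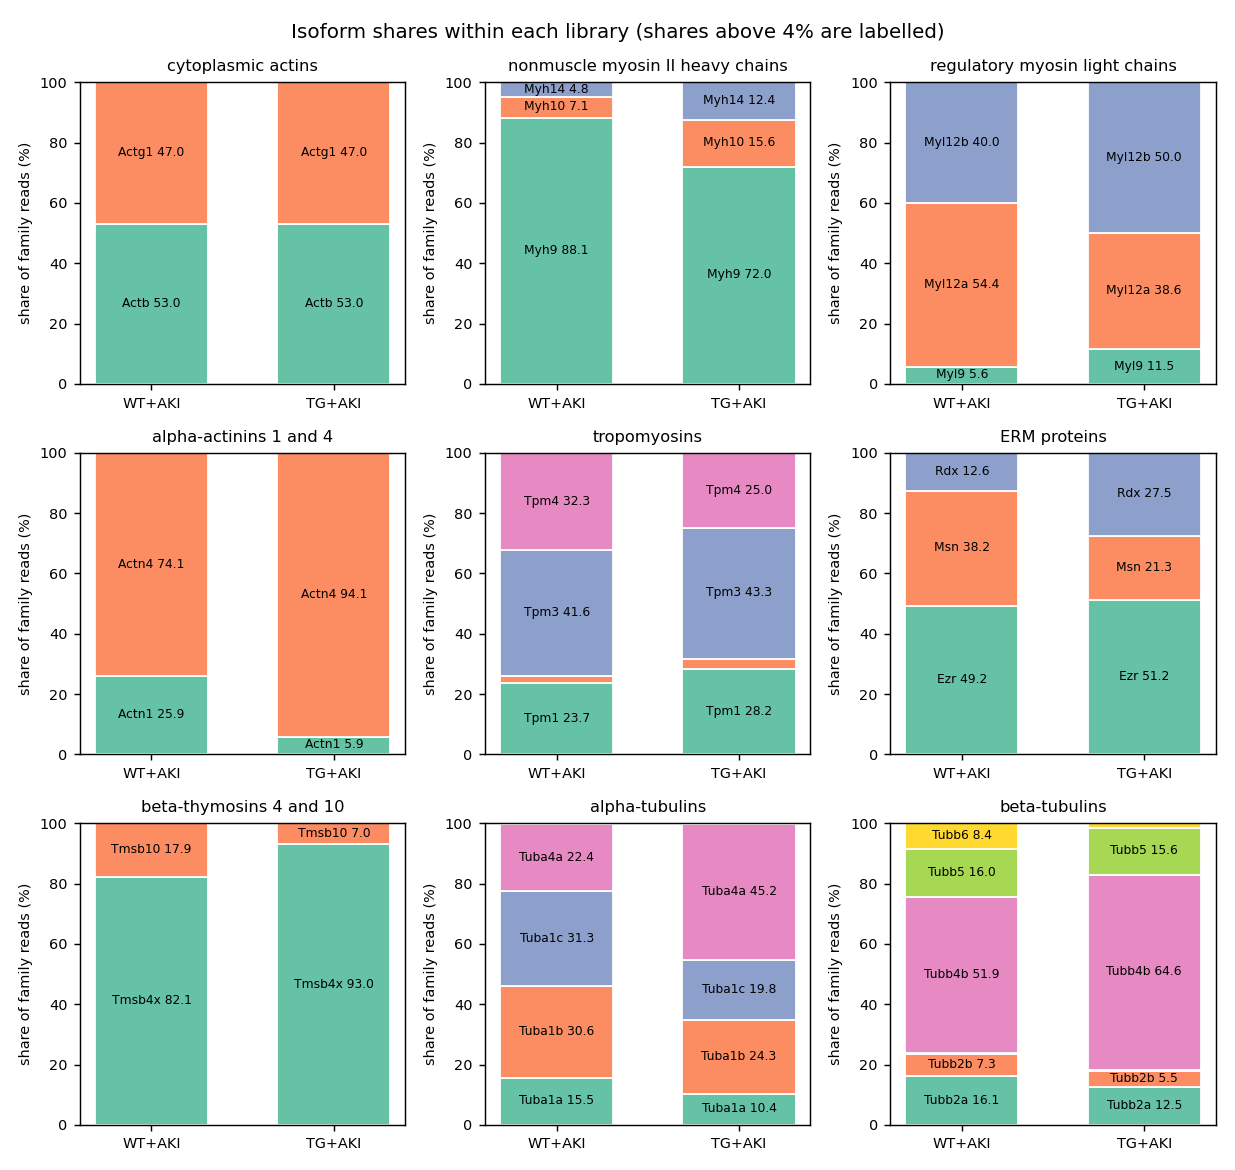
Share of a family's reads taken by each isoform (vertical, percent) in WT+AKI and TG+AKI, 1 library each, for 9 families; shares above 4% are written on the bars. The 2 cytoplasmic actins keep their proportion, while *Actn1* goes from 25.9% to 5.92%, *Msn* from 38.2% to 21.3%, *Myh9* from 88.1% to 72.0% and *Tuba4a* from 22.4% to 45.2%.

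Alpha-tubulins followed the same pattern of one isoform apart from the rest. *Tuba1c* fell from 215 to 72.9, 2.95-fold (2.82 to 3.09), *Tuba1a* from 107 to 38.1, 2.81-fold (2.64 to 2.99), and *Tuba1b* from 211 to 89.3, 2.36-fold (2.26 to 2.46). Between 53.4% and 69.5% of the words of these 3 genes occur in other genes, so their reads cannot be split with certainty. *Tuba4a*, which shares no such word, was listed at 154 and 166, giving a ratio of 1.08 (1.04 to 1.12) with a log2 difference of -0.17 under equal column totals. It took 22.4% (21.9 to 22.9) of alpha-tubulin reads in WT+AKI and 45.2% (44.3 to 46.1) in TG+AKI. Per 1000 bases of the longest transcript, *Tuba1b* was the most abundant in WT+AKI at 121, with *Tuba4a* at 54.2, and *Tuba4a* was the most abundant in TG+AKI at 58.4, with *Tuba1b* at 51.2. With the median transcript length, *Tuba1b* and *Tuba4a* were nearly equal in WT+AKI, at 185.7 and 185.6, and stood at 78.7 and 199.9 in TG+AKI.

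Beta-tubulins were the lowest group as a whole. *Tubb6* (NCBI Gene 67951), which shares no 100-base word with another gene, fell from 51.9 to 3.62 (2202 and 120 reads), 14.3-fold (11.9 to 17.4). *Tubb5*, likewise free of shared words, fell from 99.09 to 38.05, 2.60-fold (2.44 to 2.78). *Tubb2a* fell from 99.9 to 30.6 and *Tubb2b* from 45.2 to 13.5, 3.27-fold (3.05 to 3.50) and 3.35-fold (3.02 to 3.72), with 36.9% and 27.7% of their words shared. *Tubb4b*, the most abundant beta-tubulin per length in both libraries and a main component of cilia, fell from 322 to 158, 2.03-fold (1.97 to 2.10), which lies close to the rule's limit. Its pseudogene copy *Tubb4b-ps1* was listed at 14.6 and 7.31. Of the words of *Tubb4b*, 29.2% occur in other genes, and of those of *Tubb4b-ps1*, 38.8%, so the copy cannot be read apart from *Tubb4b*. All 6 genes compared had the lower value in TG+AKI, 5 met the rule, and the median log2 difference was -1.52. *Tubb6* went from 8.38% to 1.48% of beta-tubulin reads and *Tubb4b* from 51.9% to 64.6%.

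The gamma-tubulin complex, which nucleates microtubules, stood apart from the tubulins it assembles. None of its 6 compared genes met the rule in either direction. Log2 differences ran from -0.31 to 0.31 with a median of -0.05, 3 genes being lower and 3 higher (5 and 1 with equal column totals). *Tubg1*, the main gamma-tubulin, was listed at 21.5 and 17.2, giving a ratio of 0.797 (0.717 to 0.886), and *Tubg2* had 50 and 11 reads.

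Unconventional myosins are motors that carry membrane along actin or anchor it there. Of 20 genes listed 15 were compared, 8 with the lower and 7 with the higher value in TG+AKI (12 and 3 with equal column totals), and the median log2 difference was -0.06. *Myo5a* (NCBI Gene 17918), a vesicle motor, rose from 24.7 to 54.0 (1049 and 1787 reads), 2.18-fold (2.02 to 2.36). *Myo9b*, a class IX motor, fell from 65.4 to 29.8, 2.19-fold (2.04 to 2.36). *Myo15b* stood higher in TG+AKI, at 113 against 69.1, a ratio of 1.63 (1.56 to 1.72). *Myo1c*, which tethers membrane to cortical actin and was the most abundant per length of the longest transcript in both libraries, was listed at 267 and 152, 1.76-fold lower (1.70 to 1.82). The other 11 genes had values from 10.3 to 177 in WT+AKI and from 10.9 to 182 in TG+AKI, with ratios from 0.761 to 1.24.

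Shares within myosin classes moved as these genes did. *Myo5a* supplied 13.7% (12.9 to 14.5) of class V reads in WT+AKI and 22.8% (21.9 to 23.7) in TG+AKI. *Myo9b* took 52.6% (51.2 to 53.9) of class IX reads and then 34.6% (32.8 to 36.3), and *Myo1c* took 62.3% and 53.7% of class I reads. The class I myosins of blood cells were low in both libraries: *Myo1f* had 112 and 28 reads and *Myo1g* 161 and 27 reads.

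In all, the 62 intervals lay below equality for 41 genes and above it for 15, and 6 held it. At this depth most genes differ by reads alone: an exact binomial test called 8275 of all 10294 genes compared. Of the 21 genes not compared, none exceeded a value of 6.70, and they had 1 to 222 reads. The highest of them, *Myl6b*, an essential light chain, was listed at 2.08 and 6.70 (88 and 222 reads), a ratio of 3.23 (2.51 to 4.18). The plot of ratios orders the compared genes within their roles.

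**Figure D3:**
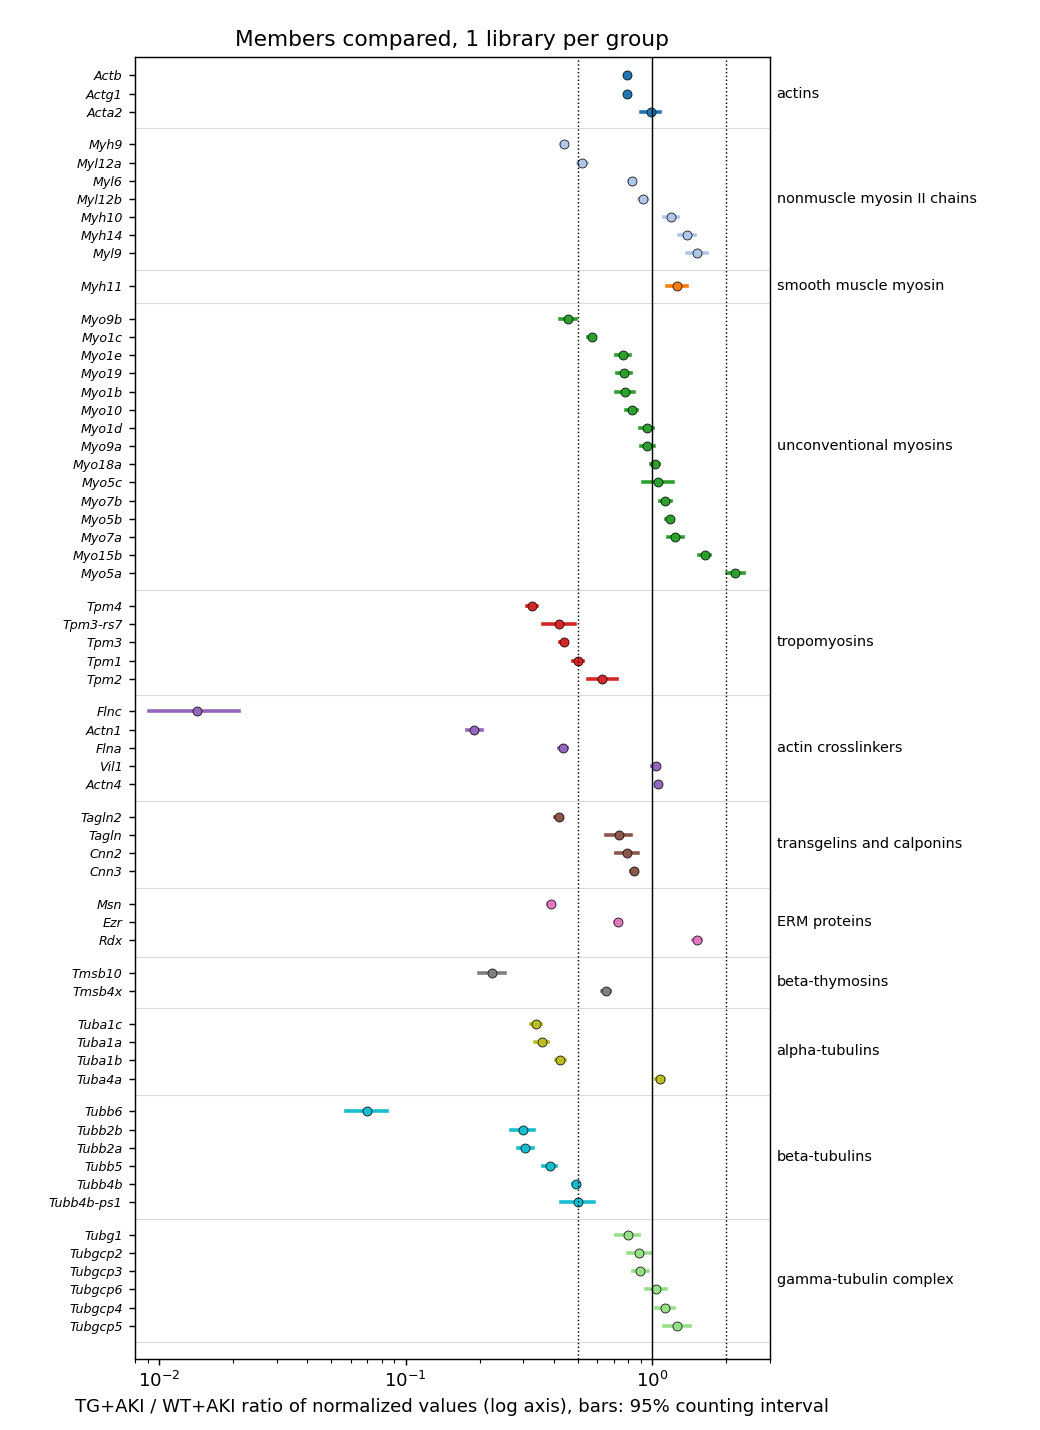
Ratio of the normalized value in TG+AKI to that in WT+AKI (horizontal, log axis) for compared genes, grouped by role, with 95% counting intervals as bars and 1 library per group. The solid line marks a ratio of 1 and the dotted lines a 2-fold difference; beta-tubulins all lie on the lower side, and gamma-tubulin complex genes lie around 1.

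The partners of these genes were described from 8 lists of actin and microtubule regulators. For all genes compared the median is 0.01, with 7.12% lower and 5.74% higher by the rule. In the Arp2/3 complex, which branches actin, all 9 genes had the lower value in TG+AKI and 1 met the rule, *Arpc1b*, which fell from 106 to 27.5, 3.87-fold (3.60 to 4.16). The list median was -0.28. Of 23 actin turnover genes 3 were lower and 0 higher, with a median of -0.56. *Capg*, a capping protein, fell from 69.2 to 12.6 and *Scin*, a severing protein, from 112 to 31.4, 5.48-fold (4.94 to 6.08) and 3.55-fold (3.32 to 3.80). *Coro1a*, a coronin of leukocytes, fell from 12.0 to 4.68.

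Among 13 nucleators and their activators 1 was lower, *Vasp*, from 61.2 to 27.7, and the median was -0.27. Of 23 genes of ROCK, serum response factor and focal adhesions, 4 were lower and 1 higher with a median of -0.32. *Pdlim7*, an adaptor on stress fibres, fell from 33.3 to 7.91, *Rnd3*, a small GTPase, fell from 38.6 to 11.3, and *Cdc42ep3* rose from 7.41 to 19.3. The factor's own gene *Srf*, named after its value was seen, was listed at 26.7 and 25.8. Brush border genes had 1 of 12 higher, the scaffold *Pdzk1* from 431 to 1082, and 1 lower, the microvillar cadherin *Cdhr2* from 126 to 59.2, with a median of 0.15.

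Among microtubule partners the calls were close to or under the share of all genes. Of 14 microtubule-associated genes 1 met the rule, *Map7d1*, which fell from 48.7 to 21.9, while *Map7* was listed at 67.4 and 126, and the median was -0.24. Of 14 genes for tubulin folding and modification 0 met it in either direction, with a median of 0.01. The last list held motors with intermediate filament and lamina genes, and 6 of its 10 were lower with a median of -1.25. Those 6 were 3 keratins, vimentin, lamin A/C and a dynein light chain, not the heavy motor subunits: *Krt18* fell from 42.9 to 6.04, 7.10-fold (6.13 to 8.25), *Krt19* from 11.04 to 1.33 and *Krt8* from 297 to 93.2. *Krt18* and *Krt19* also stand on the list of injured tubule markers.

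Cell type markers moved with these differences, and their part in them was not tested. Sums run over all markers listed. All 12 proximal tubule markers were higher in TG+AKI, their summed value going from 7511 to 32930, with *Slc34a1*, the phosphate transporter, at 764 and 5397. The larger part of both sums was *Kap*, named for its weight in them, at 3958 and 17611. All 12 injured tubule markers were lower, their sum going from 13946 to 880. Of these, *Plin2*, *Clu*, *Spp1* and *Vcam1* reached a value of 10 in both libraries, and the others did so in WT+AKI only. Most of both sums was *Spp1*, at 10183 and 671. Of the 6 compared markers of the thick limb and distal tubule 4 were higher, with sums of 2153 and 3964. Of 10 collecting duct markers 1 was higher, with sums of 455 and 608.

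Markers of other cell types in the tissue differed in size and direction. Leukocyte markers were lower for 4 of 6 compared, with sums of 168 and 71.7 over 13 listed, *Cd68* going from 37.1 to 1.39 and *Itgam* from 19.9 to 1.06. These 4 genes and *Ptprc* reached a value of 10 in WT+AKI only, so they were compared through the library where they are high. Only the macrophage marker *Csf1r*, named after its value was seen, reached 10 in both. It had 37.5 and 43.0, a ratio of 1.15 (1.07 to 1.23). The T and B cell markers *Cd3e*, *Cd3g* and *Cd79a* had 4 to 20 reads in either library. Fibroblast markers were lower for 4 of 5 compared, with sums of 518 and 212, *Col1a1* going from 47.8 to 11.1. Smooth muscle and mural markers were lower for 1 of 9 compared, *Notch3*, with sums of 523 and 366. Endothelial and podocyte markers had 0 of 10 and 0 of 8 past the rule, with sums of 646 and 614 and of 479 and 504. No listed marker was at 0 in either library, since every gene of the table has at least 1 read in both. Cell cycle markers summed to 23.1 and 9.15 over 8 genes, and those of testis germ cells to 1.32 and 0.574 and of neurons to 9.95 and 15.6, with 0 genes compared in each. The plot of gene lists sets the cytoskeletal genes beside the 8 lists of regulators and the 9 marker lists of kidney cell types.

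**Figure D4:**
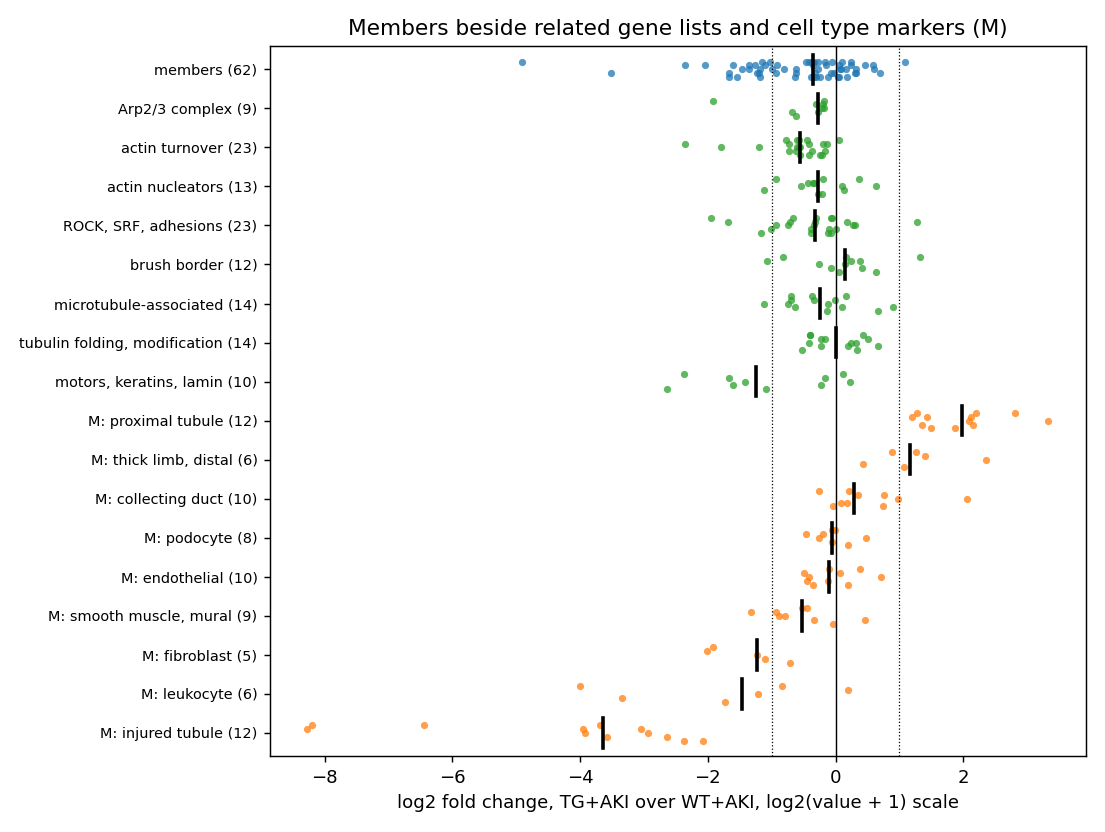
Log2 difference between TG+AKI and WT+AKI on the log2(value + 1) scale (horizontal) for each gene compared in the 62 cytoskeletal genes, 8 lists of regulators and 9 lists of cell type markers (M), with the number of genes in brackets and the median as a bar. Dotted lines mark a 2-fold difference. The cytoskeletal median of -0.35 lies within the range of the regulator list medians, -1.25 to 0.15. It also lies between the markers of injured tubule at -3.64 and of proximal tubule at 1.98.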

How the data were processed

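Per the submitters' processing notes, the tools were STAR 2.7.3a, HTSeq, DESeq2, edgeR, Cufflinks 2.2.1 and FastQC, with build mm10 and, per the study, stranded libraries and reads of 100 bases. The annotation and the use of strand in counting are not given in the sources used here, so reads of overlapping genes cannot be told apart. The table as deposited gives 1 normalized signal value per gene and library, made by the authors from gene counts. All values (100%) were whole multiples of 1 read within 0.01 reads (0.0236 for WT+AKI, 0.0302 for TG+AKI), so reads were recovered. Factors from edgeR 4.0.16 (TMM, 1.10 and 0.909) gave the same steps, and DESeq2 1.42.0 size factors were 1.14 and 0.879.

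Genes reaching a value of 10 in either library were called at 2-fold on the log2(value + 1) scale, and ratios carry Clopper-Pearson 95% intervals. An exact binomial test of the reads, which speaks of these libraries only, called 8275 of 10294 genes at an adjusted p of 0.05. Every gene past 2-fold passed it, 591 higher and 733 lower, so that the 20 cytoskeletal genes past 2-fold did too says nothing particular to them. Lengths and shared 100-base words came from GENCODE M21 transcripts (82 of 83 genes). Of 115 RefSeq symbols matching the rule, 33 had no row and were not analysed here, and 2 genes are not reported here.

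The genes, roles and 21 lists were chosen with earlier results of these data known. Named were genes past 2-fold, compared genes of the actin-binding groups and myosin II, elsewhere those past 1.5-fold or most abundant per length, and up to 3 genes per list; others were chosen after their values were seen. Steps were tested on simulated data with Python 3.11.15, numpy 2.4.6, scipy 1.17.1, pandas 2.3.3, matplotlib 3.10.9 and R 4.3.3.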

Additional observations from a re-analysis of the deposited data

How the results depend on the processing

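The count of genes at least 2-fold lower in TG+AKI (19) lay between 16 and 23 under other scalings, pseudocounts of 0.1 and 10, value minimums and no filter. Under these settings 3.96% to 11.01% of all genes were lower. At 1.5-fold the count was 26, beside 14.28% of all genes. The 2-fold count was 11 of 50 when genes sharing at least 20% of their 100-base words with other genes were left out. Beside it stood 7.05% of all genes, and the 8 lost were mostly tubulins. The count of higher genes (1, *Myo5a*) was 0 with a pseudocount of 10, with equal column totals or a median ratio of 1. In those settings 3.46% to 4.44% of all genes were higher. It was 2 with no filter (*Myl6b* added) beside 3.95% of all genes, and 3 at 1.5-fold (*Rdx* and *Myo15b* added) beside 13.97%. The median log2 difference of -0.35 was -0.62 with equal column totals, -0.49 with a median ratio of 1 and -0.54 with a minimum value of 50. DESeq2 size factors left the values of all 62 genes within their counting intervals, whereas equal column totals moved 60 of them and a median ratio of 1 moved 49. Per length, the most abundant gene in WT+AKI was the same for 8 of 11 groups with the median transcript length and for all 11 with the longest protein-coding transcript, a choice made after seeing the data, under which *Tubgcp3* replaced *Tubg1* in TG+AKI. No replicate could be left out. No paired analysis was possible because each group has 1 library. The spread between animals is the main limit of every value here.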
